A study of Homo sapiens with 15 samples.

Results

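The 8 genes described here encode the VEGF ligands VEGFA, VEGFB, VEGFC and PGF, the receptor tyrosine kinases FLT1 and KDR, and the co-receptors NRP1 and NRP2. They were taken by symbol from the 23368 genes of the count table, with no filter on their values. The 8 genes were proposed with earlier results of these data known. RNA-seq was carried out on 15 libraries of breast cancer cells, from 3 clones at 5 doses each, with 1 library for each clone and dose. WT6 and WT10 carried a FLAG-tagged wild type RBM47 transgene and MUT3 a FLAG-tagged RBM47-I281fs, a frameshift mutant. All 3 constructs were in a retroviral tet-on vector, so that doxycycline switched the transgene on, and each clone received 0, 1, 2.5, 5 or 25 ng/ml of the drug. Each clone had been grown from 1 sorted cell, so that clone and transgene cannot be told apart for any single clone. The sample labels place all 3 clones in MDA231, a triple negative breast cancer line, whereas the study's methods derive WT6 from CN34-BrM2 and the others from MDA231-BrM2, both brain metastatic lines. The question behind the dose series was how mRNA levels follow the amount of RBM47, an RNA-binding protein that acts as a suppressor of breast cancer progression.

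VEGFs are secreted dimers that induce the growth and permeability of vessels. VEGFA acts through KDR (VEGFR2), the main signalling receptor of endothelium, and also binds FLT1 (VEGFR1), which has higher affinity but weaker kinase activity and exists in a soluble, trapping form. VEGFB and PGF bind FLT1, VEGFC is the main lymphatic growth factor, and the neuropilins hold both VEGFs and class 3 semaphorins next to their receptors. Tumour cells are a common source of the ligands and often carry neuropilins.

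The libraries held 14955172 to 44771871 reads on genes, with a median of 18152381, and between 56.5% and 59.6% of all counted reads were assigned to no gene feature. Counting followed the strand of the gene, so that this tally may include reads that lie inside genes on the other strand. A level of 3 reads corresponded to 1.19 to 4.09 normalized counts, which served as the floor. With increasing dose, RBM47 was 258, 3137, 8094, 3966 and 10425 normalized counts in WT6, 168, 827, 2822, 8134 and 19877 in WT10, and 73.8, 92.1, 336, 949 and 22084 in MUT3. WT6 was not ordered by dose, and the mutant transgene stayed below the wild type levels at each of 1, 2.5 and 5 ng/ml and exceeded them at 25 ng/ml. These are mRNA levels. In non-clonal MDA231-BrM2 cells, the study detected no mutant protein at doxycycline doses that gave wild type protein. In the WT6 libraries treated with 5 and 25 ng/ml, short transcripts were shifted up and long ones down. The median log2 change from untreated cells was 0.60 and 0.58 in the shortest of 5 equal classes of transcript length at these doses, and −0.42 and −0.46 in the longest class. In all WT10 and MUT3 libraries the same medians stayed between −0.08 and 0.06. Of the 5 mesenchymal markers typical of MDA231, the means in WT6, WT10 and MUT3 were 52868, 92992 and 97417 for VIM. They were 9100, 18497 and 21944 for CD44 and 399, 1090 and 1078 for ZEB1. For FN1 they were 15210, 2349 and 2038, and for AXL 19201, 17329 and 18951. Of 10 epithelial and luminal markers, 6 had a mean of at least 10 in every clone, led by KRT8 at 8718 to 18724. CDH1 was at 0.406 to 8.44 and ESR1 at 0.662 to 9.39. FOXA1 differed by clone, with means of 212 in WT6, 4.83 in WT10 and 1.58 in MUT3, whereas PGR was highest in WT10. Of 13 endothelial markers, 8 had a mean under 10 in every clone, among them CDH5 with 1 read in all 15 libraries and PECAM1 at 1.52 to 7.18. The others included ESAM at 1384 to 3259, ROBO4 at 852 to 1158, EGFL7 at 186 to 298 and TIE1 at 12.4 to 276. The summed level of the endothelial list was 2203 to 3114 in WT6, 4255 to 7048 in WT10 and 3717 to 4544 in MUT3, and its part in the receptor values was not tested.

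Dose was analysed as a slope, the log2 change in normalized count for each unit of log2(dose + 1), with limma on log2(normalized count + 1) over 12644 genes and an adjusted p under 0.05 as the threshold. Of the 8 genes, 7 had a mean of at least 10 normalized counts in each clone and were tested. FLT1, with a mean of 7.65 in WT6, was not. In bulk cultures, fewer cells expressing a gene and less RNA per cell cannot be told apart, and gene totals do not separate splice forms such as soluble FLT1 or the VEGFA isoforms.

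**Figure D1:**
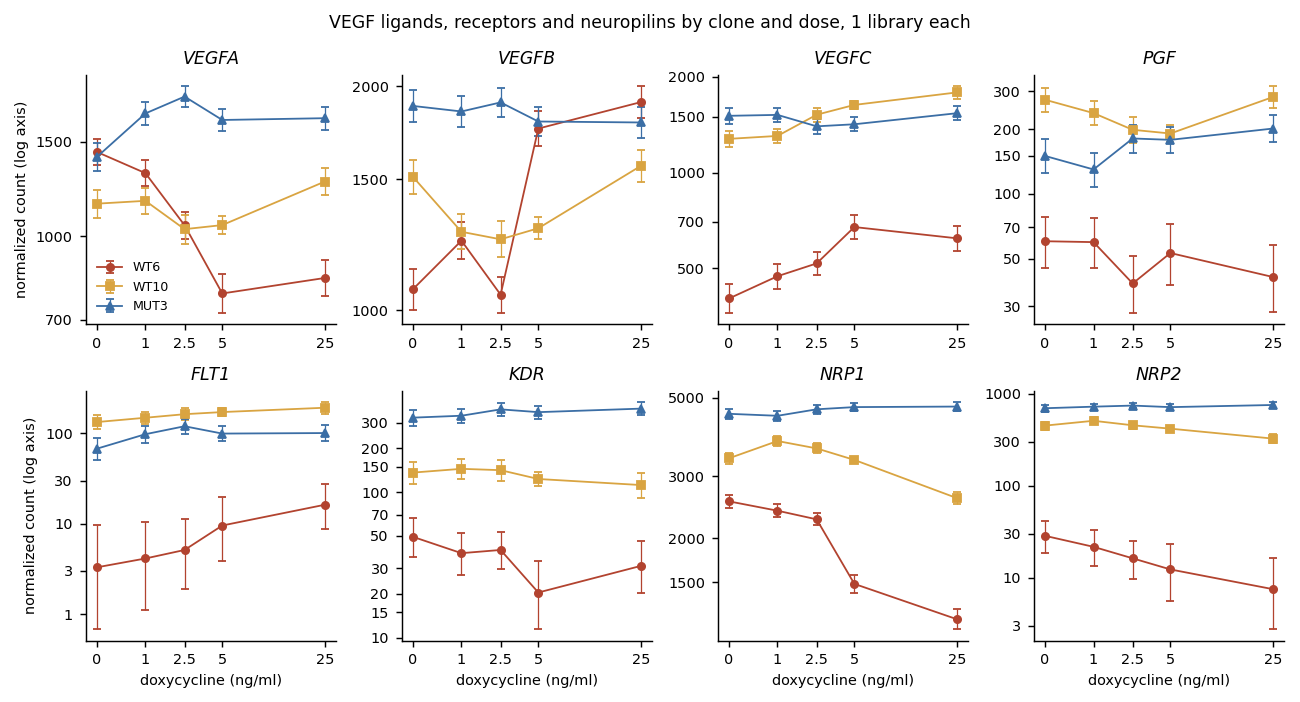
Normalized counts (log axis, scaled separately for each gene) of the 8 genes against doxycycline in ng/ml, placed at log2(dose + 1), in WT6 (circles), WT10 (squares) and MUT3 (triangles). Points are single libraries and bars are exact 95% Poisson intervals for counting error only. NRP1 in WT6 runs from 2544 down to 1181, whereas the 5 MUT3 libraries lie between 4439 and 4714.

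With dose, 2 of the 7 tested genes rose in WT6 (VEGFB and VEGFC) and 3 fell (VEGFA, NRP1 and NRP2). Over all genes, 29.2% rose and 28.3% fell in this clone. In WT10, 1 gene rose (VEGFC) and 1 fell (NRP2), against 10.2% and 9.83% of all genes. In MUT3 none of the 7 was called by limma, none had an unadjusted p under 0.05, and none was called by edgeR either. The MUT3 background was 0% of all genes by limma, with 295 genes at an unadjusted p under 0.05 and 1 called by edgeR. The slope of RBM47 itself missed the threshold there (adjusted p = 0.0517), so that the absence of calls in MUT3 does not show that these genes did not change. The median slope of the 7 genes was −0.17 in WT6, 0.01 in WT10 and 0.02 in MUT3, and that of all genes was 0.01, −0.0027 and 0.0033. Without the WT6 libraries at 5 and 25 ng/ml none of the 5 calls in WT6 passed, at slopes of −0.09 for NRP1, −0.43 for NRP2, −0.24 for VEGFA, 0.20 for VEGFC and −0.0044 for VEGFB. Over all genes, 182 were called in WT6 in that fit and 7272 in the main fit. With the log2 RBM47 count in place of dose, none of the 7 genes was called in any clone, with 1 gene of all called in WT6 and 88 in WT10.

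Both neuropilins fell in WT6, and NRP2 also fell in WT10. NRP1 in WT6 was 2544, 2393, 2263, 1486 and 1181 normalized counts at 0, 1, 2.5, 5 and 25 ng/ml. Each dose was lower than the one before it. In WT10, NRP1 was 3367, 3767, 3590, 3331 and 2598, and only the library at 25 ng/ml stood clearly below the others. In MUT3 the values were 4497, 4439, 4631, 4698 and 4714, a narrow band above every library of the other clones. The level of NRP1 at 25 ng/ml was 0.464 times that of untreated cells in WT6, with a 95% counting interval of 0.430 to 0.501. The ratio was 0.772 in WT10, from 0.732 to 0.814, and 1.05 in MUT3, from 1.00 to 1.10. Such intervals cover counting error only. The NRP1 slope was −0.26 ± 0.04 (SE) in WT6, with an adjusted p of 5.01e-05. It was −0.09 ± 0.03 in WT10, where the adjusted p of 0.0600 missed the threshold, and 0.02 ± 0.03 in MUT3. With length and GC trends across all genes taken out of each library, the WT10 slope of NRP1 passed at −0.09 (adjusted p = 0.00333).

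NRP2 fell in both wild type clones from very different starting levels. In WT10, NRP2 was 452, 510, 456, 419 and 326 normalized counts with increasing dose. In WT6 it was 28.5, 21.6, 16.2, 12.3 and 7.47, from 26 reads down to 6 reads. Both series ended at their lowest value, and in MUT3 the counts were 699, 727, 747, 719 and 758, with no overlap with either wild type clone. The slope of NRP2 was −0.39 ± 0.08 in WT6 (adjusted p = 0.00118) and −0.12 ± 0.03 in WT10 (adjusted p = 0.0137), against 0.02 ± 0.03 in MUT3. The ratio of 25 ng/ml to untreated was 0.262 in WT6, with a counting interval of 0.0880 to 0.652, and 0.722 in WT10, from 0.622 to 0.837. The WT10 call rested on the library at 25 ng/ml, without which the NRP2 slope was −0.05 (adjusted p = 0.657) and the NRP1 slope −0.0089 (adjusted p = 0.963). Without that library, 6 of all genes were called in WT10, against 2527 with it.

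Whether the wild type and mutant clones responded differently was tested as the mean of the WT6 and WT10 slopes minus the MUT3 slope, that is per unit of dose and not of RBM47, whose mRNA followed dose differently in each clone. It was below 0 for NRP1 (−0.19 ± 0.04, adjusted p = 0.00533) and NRP2 (−0.28 ± 0.05, adjusted p = 0.00277), and above 0 for VEGFC (0.12 ± 0.04, adjusted p = 0.0354). This is 1 of 7 genes above and 2 of 7 below, against 10.1% and 14.6% of all genes, and the median difference was −0.16 for the 7 genes and 0.0023 for all. In the fit without these trends, the neuropilin differences were −0.14 for NRP1 (adjusted p = 0.00053) and −0.20 for NRP2 (adjusted p = 0.00636). Without the MUT3 library at 25 ng/ml, the estimates were −0.20 for NRP1, −0.27 for NRP2 and 0.17 for VEGFC, and the adjusted p values of 0.175, 0.120 and 0.195 no longer passed. Of all genes, 3 were called in that fit, against 3114 in the main fit. Without the WT10 library at 25 ng/ml, the adjusted p was 0.0537 for NRP1. Without the WT6 libraries at 5 and 25 ng/ml, in which the length trend arose, the difference was −0.11 for NRP1 (adjusted p = 0.0784) and −0.29 for NRP2 (adjusted p = 0.128). The part of the length trend in the WT6 values was not tested beyond these fits.

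**Figure D2:**
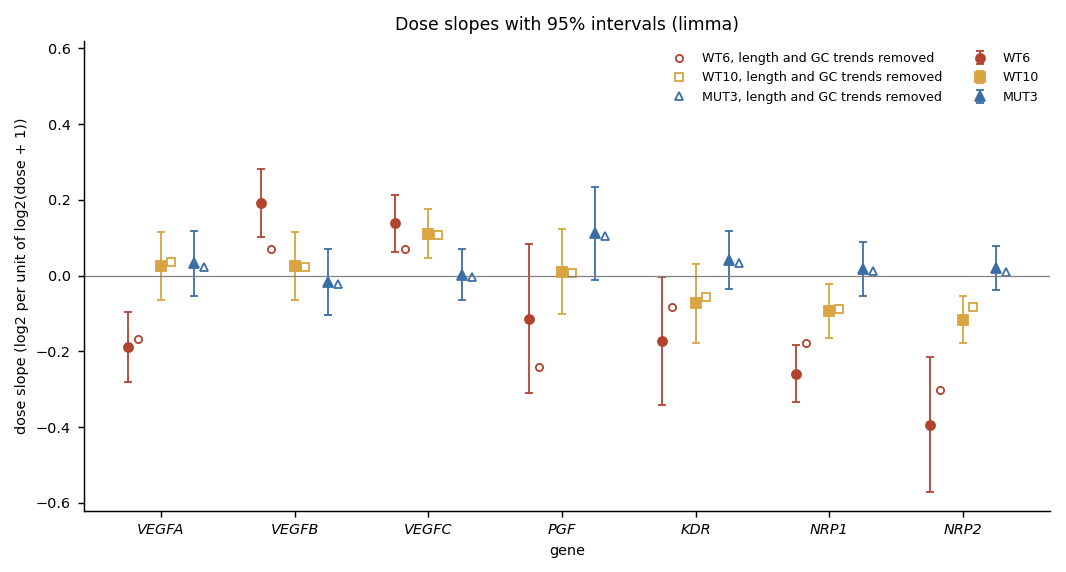
Dose slopes (log2 per unit of log2(dose + 1)) of the 7 tested genes in WT6, WT10 and MUT3. Filled points are limma estimates with 95% confidence intervals, and open points the estimates after length and GC trends were removed. The NRP1 and NRP2 estimates lie below 0 in both wild type clones and next to 0 in MUT3, and the WT6 slope of VEGFB shrinks from 0.19 to 0.07 once the trends are removed.

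VEGFC rose in both wild type clones. In WT6, VEGFC was 402, 472, 518, 674 and 622 normalized counts with increasing dose, and in WT10 it was 1277, 1304, 1520, 1632 and 1786. WT10 increased at every step, whereas WT6 peaked at 5 ng/ml. In MUT3, VEGFC was 1508, 1518, 1398, 1419 and 1537, within the range of WT10. The slope was 0.14 ± 0.04 in WT6 (adjusted p = 0.00419), 0.11 ± 0.03 in WT10 (adjusted p = 0.0202) and 0.0029 ± 0.03 in MUT3, so that VEGFC at 25 ng/ml was 1.55-fold (counting interval 1.35 to 1.77), 1.40-fold (1.30 to 1.51) and 1.02-fold (0.944 to 1.10) that of untreated cells. With the trends removed the WT10 slope was 0.11 (adjusted p = 0.00828), but the WT6 slope was 0.07 (adjusted p = 0.121) and the difference from MUT3 0.09 (adjusted p = 0.0612). Without the untreated WT6 library the adjusted p for VEGFC was 0.0680 in WT6 and 0.0768 for the difference from MUT3, and in WT10 it was 0.0800, 0.0606 and 0.249 without the WT10 libraries at 0, 1 and 25 ng/ml. Without the WT6 library at 25 ng/ml, VEGFC had a slope of 0.28 in WT6 (adjusted p = 0.00329) and a difference from MUT3 of 0.19 (adjusted p = 0.00445). The difference of VEGFC from MUT3 failed without any of 8 of the 15 libraries.

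VEGFC and NRP2, called in both wild type clones in opposite directions, both held a GC box (GGGCGG, searched on both strands) in RefSeq promoters of GRCh38.p14, a window of 300 bases from 250 before to 50 after the start site. The windows nearest to the start site that lay wholly before it are shown, with the GC box in capitals, 5′ to 3′ on the strand of the gene. They lie at chr4:176793094-176793123 (minus strand) for VEGFC, where the box begins 189 bases before the start, and at chr2:205682388-205682417 (plus strand) for NRP2, where it begins 101 bases before.
VEGFC: cgcaggggacagGGGCGGggagggagagat
NRP2: ggaacacagaagGGGCGGgccctgagccgg
All 6 members with an entry in the promoter table (VEGFB, VEGFC, PGF, FLT1, KDR and NRP2) had at least 1 GC box, from 2 in VEGFC, KDR and the upstream entry of PGF to 9 in VEGFB. A GC box occurred in 45.0% of 35116 promoters of this length. A TATA box (TATAAA, on either strand) was found in FLT1 alone, and in 11.5% of all promoters. VEGFA and NRP1 had no entry. These are matches of letters and not binding sites.

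VEGFA, the principal angiogenic ligand, fell with dose in WT6 and had no called slope in the other clones. These counts are of mRNA. The study used VEGFA as a control and reports that secreted VEGFA, measured by ELISA in WT6 given doxycycline, did not change. It also reports that RBM47 bound VEGFA mRNA and did not raise its level. VEGFA in WT6 was 1435, 1310, 1049, 783 and 837 normalized counts at 0, 1, 2.5, 5 and 25 ng/ml. The 3 lowest doses gave the 3 highest values. In WT10 the counts were 1150, 1164, 1031, 1049 and 1264, and in MUT3 1404, 1691, 1818, 1645 and 1657. The slope was −0.19 ± 0.04 in WT6 (adjusted p = 0.00198), 0.02 ± 0.04 in WT10 (adjusted p = 0.732) and 0.03 ± 0.04 in MUT3. The ratio of 25 ng/ml to untreated was 0.584 in WT6, with a counting interval of 0.531 to 0.641, and 1.10 in WT10, from 1.01 to 1.20. In MUT3 it was 1.18, from 1.093 to 1.275. With the trends removed the WT6 slope was −0.17 (adjusted p = 0.000876), and without the WT6 library at 25 ng/ml it was −0.33 (adjusted p = 0.00357). The difference of the wild type mean from MUT3 was −0.11 ± 0.05 for VEGFA (adjusted p = 0.104).

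The WT6 slope minus the WT10 slope was below 0 for VEGFA (−0.21 ± 0.06, adjusted p = 0.0345), NRP1 (−0.16 ± 0.05, adjusted p = 0.0399) and NRP2 (−0.28 ± 0.09, adjusted p = 0.0485), and above 0 for none. Among all genes, 7.09% lay below and 7.28% above, and the median was −0.12 for the 7 genes and 0.0002 for all. These calls sat close to the threshold. Leaving out any 1 of 10 libraries ended the call for NRP1 and any 1 of 12 that for NRP2, and the adjusted p for NRP2 was 0.119 with the trends removed. For VEGFA the estimate was −0.20 with the trends removed (adjusted p = 0.0158). The VEGFA call was lost without either of the WT6 libraries at 0 and 1 ng/ml or any of the WT10 libraries at 0, 1 and 25 ng/ml, and the estimate was −0.12 (adjusted p = 0.323) without the last of these and −0.36 (adjusted p = 0.0484) without the WT6 library at 25 ng/ml. For NRP1 it was −0.25 (adjusted p = 0.0293) without the WT10 library at 25 ng/ml and −0.11 (adjusted p = 0.229) without the untreated WT10 library.

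VEGFB, a ligand of FLT1, rose in WT6 from 1067, 1240 and 1050 normalized counts at the 3 lowest doses to 1755 and 1905 at 5 and 25 ng/ml. The step lay between 2.5 and 5 ng/ml, and the 2 high values were those of the libraries with the length trend. In WT10, VEGFB was 1511, 1275, 1246, 1289 and 1564, lowest in the middle of the series, and in MUT3 it was 1788 to 1903. The slope was 0.19 ± 0.04 in WT6 (adjusted p = 0.0015), 0.03 ± 0.04 in WT10 (adjusted p = 0.727) and −0.02 ± 0.04 in MUT3. The difference of the wild type mean from MUT3 was 0.13 ± 0.05 (adjusted p = 0.0808). The VEGFB transcript, at 1805 nt, is short. With the length and GC trends removed the WT6 slope was 0.07 (adjusted p = 0.0255), and without the libraries at 5 and 25 ng/ml it was −0.0044 (adjusted p = 0.989).

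PGF, placenta growth factor, was the least abundant ligand and showed no called slope. It was 60.3, 59.7, 38.4, 53.1 and 41.1 normalized counts in WT6 with increasing dose, 274, 237, 198, 191 and 282 in WT10, and 150, 130, 181, 178 and 201 in MUT3. The slopes of PGF were −0.11 ± 0.09 (adjusted p = 0.306), 0.01 ± 0.05 (adjusted p = 0.916) and 0.11 ± 0.06 (adjusted p = 1). Of the settings run, the WT6 slope of PGF passed only in the fit with length and GC trends removed, at −0.24 (adjusted p = 0.0136), as did its difference from MUT3 at −0.22 (adjusted p = 0.00966), which also passed without the WT10 library at 25 ng/ml (−0.28, adjusted p = 0.0237). PGF, at 1740 nt, was in the shortest length class, which moved up in the WT6 libraries at 5 and 25 ng/ml.

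The receptors were present at low levels. KDR in WT6 was 49.3, 38.1, 40.1, 20.4 and 31.1 normalized counts, from 15 to 47 reads. It was 136, 145, 142, 123 and 112 in WT10, and 325, 335, 371, 355 and 375 in MUT3, and the 3 clones did not overlap. The slopes of KDR were −0.17 ± 0.08 in WT6 (adjusted p = 0.0749), −0.07 ± 0.05 in WT10 (adjusted p = 0.323) and 0.04 ± 0.04 in MUT3, and the difference of the wild type mean from MUT3 was −0.16 ± 0.06 (adjusted p = 0.0524). The difference passed in each of 4 fits that left out 1 library, and changed most without the WT6 library at 25 ng/ml, at −0.27 (adjusted p = 0.0134), whereas with the trends removed it was −0.10 (adjusted p = 0.107).

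FLT1 in WT6 was at 3.29, 4.12, 5.12, 9.54 and 16.2 normalized counts, from 3 reads in untreated cells to 13 reads at 25 ng/ml. The ratio of these was 4.93, with a counting interval of 1.35 to 26.9. FLT1 was 133, 149, 163, 172 and 192 in WT10, higher at every step, and 67.5, 97.7, 120, 99.2 and 101 in MUT3. The ratio of 25 ng/ml to untreated was 1.44 in WT10 (counting interval 1.141 to 1.825) and 1.49 in MUT3 (1.056 to 2.119). FLT1 was not tested in the main fit, since its mean in WT6 was under the filter. It entered only alternative fits without that filter, and no test of its slopes or of its low level in WT6 is given.

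The clones differed in the level of most of these genes, and WT6 stood lowest. The fitted level at the mean dose was lower in WT6 than in MUT3 for all 7 tested genes and lower than in WT10 for 5 of them. Of all 12644 genes, 4746 were called lower in WT6 than in MUT3 and 4660 lower than in WT10. In either direction, 75.5% and 75.3% of all genes differed. WT10 was lower than MUT3 for 5 genes and higher for PGF. Of all 12644 genes, 3202 were called lower and 2904 higher, 48.3% in either direction. The widest gap was in NRP2, whose level in WT6 was lower by a log2 difference of −4.68 ± 0.13 from WT10 and −5.45 ± 0.13 from MUT3 (adjusted p = 8.18e-14 and 1.16e-14). KDR in WT6 differed by −1.90 ± 0.14 from WT10 and −3.32 ± 0.13 from MUT3 (adjusted p = 6.36e-09 and 3.66e-12), and PGF by −2.21 ± 0.16 and −1.72 ± 0.17 (adjusted p = 6.41e-09 and 1.72e-07). FLT1 lay between 3.29 and 16.2 normalized counts in WT6, between 133 and 192 in WT10 and between 67.5 and 120 in MUT3, with no overlap. For NRP2, FLT1, KDR, PGF, VEGFC and NRP1, no WT6 library reached the lowest library of WT10 or MUT3. How many of all genes separate the clones in this way was not counted. The lack of overlap, here and above, is therefore not shown to be particular to these genes.

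The order of the clones was not the same for each gene. For NRP1, NRP2 and KDR it was WT6, WT10 and MUT3 from low to high, and all neighbours differed, WT10 from MUT3 by −0.48 ± 0.08, −0.77 ± 0.06 and −1.42 ± 0.09 on the log2 scale (adjusted p = 9.89e-05, 1.59e-07 and 2.22e-08). For PGF, WT10 was the highest, above MUT3 by 0.49 ± 0.13 (adjusted p = 0.00532), or by 0.28 (adjusted p = 0.0574) without the WT10 library at 25 ng/ml. All 5 FLT1 values of WT10 were also above those of MUT3. VEGFC did not differ detectably between WT10 and MUT3 (0.02, 95% interval −0.13 to 0.17). VEGFA and VEGFB differed little between WT6 and WT10, by −0.10 (interval −0.30 to 0.10) and −0.01 (interval −0.22 to 0.20), and were lower in both than in MUT3 by −0.64 and −0.54 for VEGFA and −0.44 and −0.43 for VEGFB. The gap between WT6 and WT10 passed for VEGFA without the WT6 library at 25 ng/ml (−0.24, adjusted p = 0.0316), and for VEGFB without the WT6 libraries at 5 and 25 ng/ml (−0.30, adjusted p = 0.0345).

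**Figure D3:**
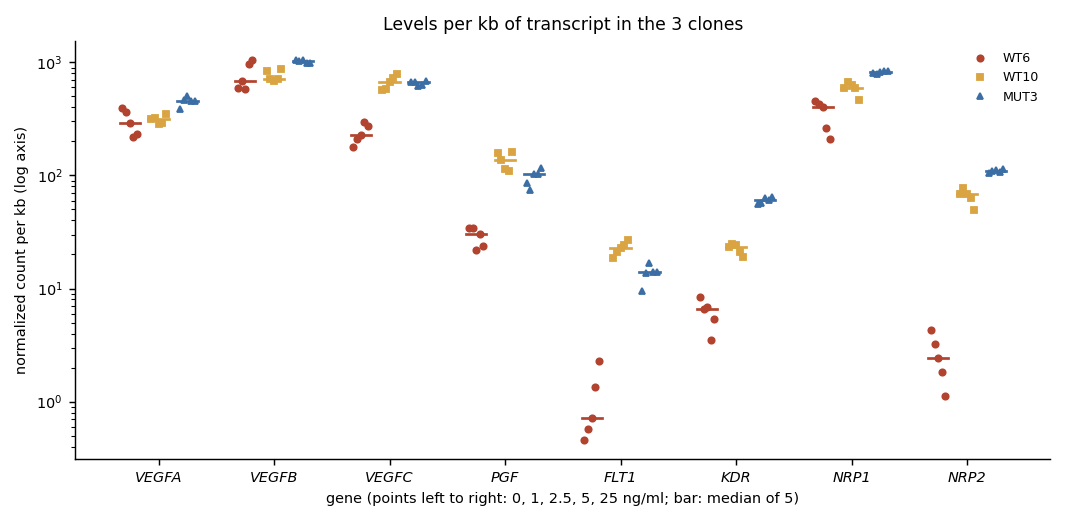
Normalized counts per kb of transcript (log axis) of the 8 genes in WT6 (circles), WT10 (squares) and MUT3 (triangles). The points of a clone run from 0 to 25 ng/ml from left to right and the bar is the median of the 5 libraries. NRP2 in WT6 lies between 1.13 and 4.29 per kb, below the 49.1 to 114 of the other clones.

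Per kb of transcript, VEGFB was the most abundant ligand in untreated cells of each clone. VEGFA made up 33.1% of the summed ligand level per kb in untreated WT6, 17.0% in WT10 and 17.8% in MUT3. In WT6 its share fell to 14.6% at 25 ng/ml, while VEGFB went from 49.2% to 66.6% and VEGFC from 14.8% to 17.3%. In WT10 the VEGFC share went from 30.1% to 36.4% and the VEGFA share from 17.0% to 16.2%, and in MUT3 the VEGFC share was 30.5% and 30.3%. PGF was between 1.49% and 8.38% in any library. The ligand sum was 1201 per kb in untreated WT6 and 1586 at 25 ng/ml, so that the lower VEGFA share came with a higher total. The WT6 shares at 5 and 25 ng/ml are also those of the libraries with the length trend.

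Among the co-receptors, NRP1 exceeded NRP2 in every library. The ratio per kb was 105 in untreated WT6 and 186 at 25 ng/ml, 8.70 to 9.38 in WT10 and 7.19 to 7.70 in MUT3. The near absence of NRP2 thus set WT6 apart from the other clones at every dose, and within WT10 the 2 neuropilins changed in parallel. The ratio of KDR to FLT1 per kb was 5.88 in untreated MUT3 and 4.55 at 25 ng/ml, 1.25 and 0.713 in WT10, and 18.3 and 2.35 in WT6, where the FLT1 counts are those of 3 and 13 reads.

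Deviations from the clone means moved together for some members. Over the 15 libraries, which share their clone and, in WT6, the length trend, Pearson's r of the deviations was 0.95 for NRP1 with NRP2, −0.82 for VEGFC with NRP1 and −0.83 for VEGFC with NRP2. It was −0.93 for VEGFB with NRP1, −0.85 for VEGFC with KDR and 0.68 for VEGFA with NRP1. The genes most like NRP1 by this measure were NCAPD3 and KPNB1 (r = 0.99 for both), and those most like NRP2 were KIAA0586 and CSNK2A1 (r = 0.98 for both). VEGFC was closest to NDFIP1 and CMAS (0.97 for both), VEGFA to DAAM2 (0.96) and FKBP9 (0.95), VEGFB to MRPS18B (0.99) and NDUFA13 (0.98), KDR to TNS3 and TMEM164 (0.96 for both), and PGF to DNM1 (0.90) and PTTG1IP (0.84). By level rather than deviation, which mostly follows the clones, the closest genes were SOX9 and NONO for NRP2 (0.998 and 0.997), SSFA2 and TANC1 for NRP1 (0.996 and 0.995), TCEAL8 and EMR1 for VEGFC (0.99 for both), C17orf51 and C6orf201 for KDR (0.99 for both), ZNF653 and PLAU for PGF (0.99 and 0.98), FERMT3 and COMMD9 for VEGFB (0.97 and 0.96), and PARD6G and EPC2 for VEGFA (0.93 for both). These are descriptions of 15 libraries.

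Of the rest of the family, FIGF (VEGFD) had 8 reads and FLT4 (VEGFR3), the receptor of VEGFC, 3 reads in all 15 libraries together. VEGFC was thus measured in cells with next to no mRNA of its main receptor. Of the other genes that process or anchor VEGF ligands, 8 were tested. None of them rose and 5 fell in WT6 (29.2% and 28.3% of all genes), 1 rose in WT10 (10.2%), and 3 had a wild type slope below that of MUT3 (PCSK5, PLAT and PLAU, against 14.6%). With the trends removed, 2 rose and 3 fell in WT6, where 27.1% and 31.5% of all genes did. The difference was −0.33 for PCSK5 (adjusted p = 0.0263), a proprotein convertase, and −0.22 for PLAT (adjusted p = 0.00116), the tissue plasminogen activator, whose MUT3 slope of 0.10 did not pass.

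The partners of the neuropilins are the class 3 semaphorins, most of which bind them, and the plexins, which signal. Of 10 tested, 1 rose and 6 fell in WT6 (29.2% and 28.3% of all genes), 3 fell and none rose in WT10 (9.83% and 10.2%), and none was called in MUT3. The wild type slope was below that of MUT3 in 6 of 10 and above it in none, beside 14.6% and 10.1% of all genes, and the median difference was −0.23 against 0.0023 for all. With the trends removed, 6 of 10 were below and none above, against 21.6% and 14.7% of all genes, 2 rose and 5 fell in WT6, and SEMA3B was called above 0 in MUT3 (0.27, adjusted p = 0.0386). SEMA3E, a ligand of PLXND1, had a slope of −0.56 in WT6 and −0.18 in WT10 and a difference from MUT3 of −0.39 (adjusted p = 0.00138). SEMA3C differed by −0.29 (adjusted p = 0.0106). SEMA3B rose in WT6 with a slope of 0.18 (adjusted p = 0.00069), and its difference from MUT3 of −0.23 (adjusted p = 0.0203) came with a MUT3 slope of 0.28 (adjusted p = 0.285).

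**Figure D4:**
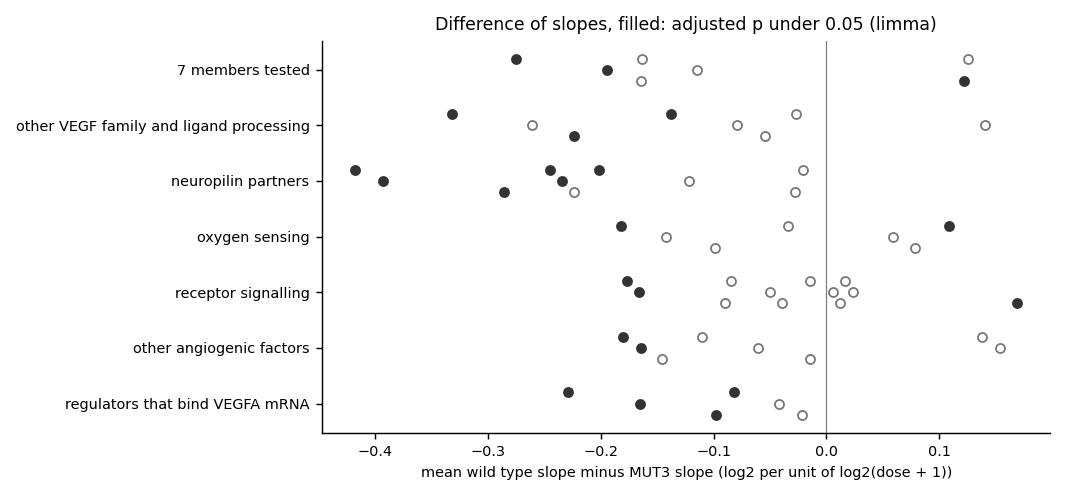
Mean wild type slope minus MUT3 slope (log2 per unit of log2(dose + 1)) for the 7 tested members and the tested genes of 6 pathway lists. Each point is a gene, filled where its adjusted p by limma was under 0.05, and vertical offsets only separate the points. For the neuropilin partners, all 6 filled points lie below 0.

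Genes of oxygen sensing, which set VEGFA transcription in hypoxia, showed 4 of 7 lower and none higher in WT6 (28.3% and 29.2% of all genes) and none called in WT10. Once the trends were removed, 3 were lower and 3 higher in WT6. For this and the following lists, the shares of all genes in WT6 were then 31.5% lower and 27.1% higher. Against MUT3, 10.1% of all genes were above and 14.6% below. Of the 7 genes, 1 was above, VHL (0.11, adjusted p = 0.0397), and 1 below, EPAS1 or HIF2A (−0.18, adjusted p = 0.0392). EPAS1 missed the threshold with the trends removed (−0.12, adjusted p = 0.0574). In that fit 2 were above MUT3 and 1 was below, HIF1A (−0.13, adjusted p = 0.0151), against 14.7% and 21.6% of all genes. Before trend removal, HIF1A missed the threshold (−0.14, adjusted p = 0.0505). Of 12 receptor signalling genes, 2 rose and 3 fell in WT6 and 1 rose in WT10, shares below those of all genes. In the fit without trends, 4 rose and 3 fell in WT6. Against MUT3, SYNJ2BP was above (0.17, adjusted p = 0.0387) and the phosphatases PTPN11 and PTPRJ were below (−0.18 and −0.17, adjusted p = 0.0128 and 0.00364). Of 8 other angiogenic factors, 2 rose and 4 fell in WT6 (29.2% and 28.3% of all genes) and 1 fell in WT10 (9.83%). PDGFC and THBS2 were below MUT3 (−0.18 and −0.16, adjusted p = 0.0156 and 0.0268), as were 14.6% of all genes. With the trends removed, 2 rose and 2 fell in WT6, and the THBS2 difference was −0.10 (adjusted p = 0.191). Of 6 proteins that bind VEGFA mRNA, 1 rose and 4 fell in WT6 (29.2% and 28.3% of all genes) and 2 fell in WT10 (9.83%). Against MUT3 4 were below and none above (14.6% and 10.1% of all genes). They were led by EPRS (−0.23, adjusted p = 0.00264), a subunit of the complex that silences VEGFA translation, and DDX6 (−0.17, adjusted p = 0.00565). After trend removal, none rose and 3 fell in WT6, and 3 were below MUT3 (21.6% of all genes). Without trend removal, no gene of these lists was called in MUT3. The marker lists moved as well, beside 10.1% of all genes above MUT3 and 14.6% below. Of 6 epithelial genes, 3 were above and 1 below, and of 5 mesenchymal genes 3 were below. Of 4 tested endothelial genes, 1 was above, ROBO4 (0.28, adjusted p = 0.0194). The part of these shifts in the values of the members was not tested.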

How the data were processed

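RNA was polyA-selected, prepared with TruSeq and sequenced as paired ends of 75 bases. The authors aligned the reads with STAR to hg19, counted them by gene with HTSeq (version 0.5.4, per the labels' processing notes) and normalized them with DESeq. The deposited table holds a normalized signal, gene counts divided by a size factor, and not raw counts. Whole reads were recovered by dividing by the value of 1 read, and 100.0% of values came out whole within 0.001. HTSeq was run with default settings, which count reads on the strand of the gene, and whether the libraries kept strand is not given in the sources used here. VEGFA, VEGFC, KDR, NRP1 and NRP2 each overlap 1 annotated gene on the opposite strand, and reads of the 2 cannot be told apart if the libraries did not keep strand. NRP1 also overlaps 1 gene on its own strand. The 5 tally rows that name no gene were left out.

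Normalized counts were filtered at a mean of at least 10 in each clone, transformed as log2(value + 1) and fitted with limma 3.58.1 (R 4.3.3) with vooma weights in 1 model of 15 libraries, with an intercept and a slope per clone and Benjamini-Hochberg adjustment over 12644 genes. No condition had a second library, so that p-values rest on the scatter around the dose lines. Since the table was not raw counts, edgeR 4.0.16 on recovered reads served as an alternative. In another, smooth trends of log2 values with transcript length and GC content across genes were subtracted from each library. Levels per kb used the canonical transcript of the GENCODE annotation on GRCh37, in which 92.0% of symbols matched. The fit was tested on simulated data. All 8 members and RBM47 are named. Of each list, at most 2 genes up and 2 down by the mean wild type slope are named, among those differing from MUT3. PLAU, HIF1A and the marker genes were named after their values were seen. The members and lists were chosen with earlier results of these data known.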

Additional observations from a re-analysis of the deposited data

Results flagged for a closer look

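Differences in dose slope between clones were singled out for 4 of the 7 tested genes. The mean wild type slope minus the MUT3 slope was −0.19 for NRP1, −0.28 for NRP2 and 0.12 for VEGFC, and the WT6 slope minus the WT10 slope was −0.16 for NRP1, −0.28 for NRP2 and −0.21 for VEGFA, each past an adjusted p of 0.05 in limma. NRP1 and NRP2 thus appear in both comparisons, which share the WT6 and WT10 libraries. The first comparison sets 2 clones against 1, and the transgene and the clone of MUT3 cannot be told apart.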

How the results depend on the processing

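Another pseudocount changed none of the 56 calls of the 7 genes, and no precision weights changed 1, edgeR 1 and no filter 3. With the RBM47 count in place of dose, 0 members were called in WT6 (5 by dose), 0 in WT10 (2), 0 for wild type against MUT3 (3) and 0 for WT6 against WT10 (3). Without the WT6 libraries at 5 and 25 ng/ml, an alternative chosen after seeing the data, these numbers were 0 in WT6, 1 against MUT3 and 0 for WT6 against WT10, and the VEGFB slope in WT6 reversed to −0.0044. With no filter, 1 member was called for WT6 against WT10. Leaving out 1 library at a time gave 4 to 6 members in WT6, 0 to 3 in WT10, 0 to 6 against MUT3 and 0 to 4 for WT6 against WT10. For all genes, 7272 were called in WT6, 1 with the RBM47 count, 3945 with each clone fitted alone and 182 without the 2 WT6 libraries. For WT10 it was 2527, 4369 with trends removed, 88 and 4915, for wild type against MUT3 3114, 0 with the RBM47 count and 1595 without the 2 WT6 libraries, and for WT6 against WT10 1817, 0 and 6. Leaving out 1 library gave 4623 to 7891, 6 to 4142, 3 to 4914 and 59 to 3714. In MUT3, 0 genes were called and at most 176, with each clone fitted alone. The causes were not tested. No paired analysis was possible because every clone and dose had 1 library, numbered 1. With the 5 shared doses as a block, added after seeing the data, the levels gave the same calls for all 7 genes, 5, 7 and 6 of them called. Depth limits NRP2, KDR and FLT1 in WT6, with 3 to 47 reads a library.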
